A study of Mus musculus with 12 samples.

Results

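Vitamin C (ascorbate) is made in the mouse liver, and 7 genes of its synthesis and transport were followed in the livers of ob/ob mice with and without ethionine. The 7 members were Ugp2, Ugdh, Akr1a1, Rgn and Gulo, which encode enzymes on the route from UDP-glucose to ascorbate, and Slc23a1 and Slc23a2, which encode the sodium-dependent ascorbate transporters. They were chosen by name as genes of that route, and selected on the fold changes of this same contrast in so far as Rgn was known to be among its most strongly lowered genes. Their fold changes are therefore given as a description without a p, and the number of members that met the call rule of the whole table supports nothing about them. The count table held 56205 genes, of which 13416 passed the low-count filter, and all 7 members were among those.

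Poly(A) RNA was extracted from entire livers of 12 mice of the ob/ob strain (B6.Cg-Lep ob/J) and sequenced as 1 library per mouse. All the mice lacked leptin, which makes this strain obese, ate standard chow and were 8 to 10 weeks old when treatment began. The 6 mice of the OBOB_Fibrotic group (fibrotic) also received ethionine, an ethyl analogue of methionine that is toxic to the liver, and the 6 mice of the OBOB_FLO group (FLO) did not. The labels disagree on the treatment. One gives 0.165% DL ethionine, in drinking water for 2 weeks according to the design text, another gives an injection of 0.15%, and the study's methods give drinking water for a shorter time. The comparison asks how liver gene expression differed in this ethionine model. Leptin deficiency is shared by both groups, so no lean mouse stands beside it. The word fibrotic is used here only as the title of the group. The study describes ob/ob mice given ethionine as a model with microvesicular steatosis and inflammation, and reports no difference in their expression of the collagen gene Col1a1.

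Total counts ranged from 17815568 to 20352675 per fibrotic library and from 18275320 to 24814263 per FLO library. Values are CPM, counts relative to the library total, scaled by TMM, which corrects for differences in RNA composition. The TMM factors were 0.965 to 1.2 in fibrotic and 0.913 to 0.963 in FLO libraries. All mice were stated to be male, yet FLO replicate 3 held 3773 Xist counts (at most 4 in any other library) and 4 Ddx3y counts (at least 556 in any other). Of 10 hepatocyte markers, all were detected and tested. By the call rule given below, 2 were higher and 3 lower in fibrotic livers, where 15.9% of all tested genes were higher and 14.0% lower. The summed level of the 10 markers was 74700 to 118000 CPM in fibrotic against 97900 to 113000 CPM in FLO livers.

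Most mammals make ascorbate in the liver. UDP-glucose is oxidised to UDP-glucuronate, glucuronate is released and reduced to gulonate, gulonate is closed into a lactone ring, and the lactone is oxidised to ascorbate. The last enzyme, encoded by Gulo, is the one that primates and guinea pigs have lost. Ascorbate enters cells through the Slc23 carriers, while its oxidised form, dehydroascorbate, enters through glucose transporters and is reduced again inside. Ascorbate keeps the iron of many oxygenases in its reduced state, among them the hydroxylases that modify collagen.

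Rgn showed the largest difference among the members, with a level in fibrotic livers of 17.6 ± 6.70 CPM against 696 ± 133 CPM in FLO livers (mean ± SD, n = 6 per group here and below). The other members differed much less. Slc23a1 had a log2 fold change of -0.87, fibrotic over FLO, Gulo one of -0.51, Ugp2 of -0.38, Akr1a1 of -0.33, Slc23a2 of -0.23 and Ugdh of -0.04. The mean of every member was thus lower in fibrotic livers with this scaling, although Ugdh turned to 0.13 when counts were scaled by library totals alone and to 0.12 relative to hepatocyte markers. Scaling by library totals, which raised the median of all tested genes from 0.03 to 0.20, also gave -0.33 for Gulo, -0.23 for Ugp2, -0.15 for Akr1a1 and -0.04 for Slc23a2, against -0.71 for Slc23a1 and -5.14 for Rgn. A gene was called when its adjusted p from edgeR was 0.01 or less and its absolute log2 fold change over 0.5. By that rule 29.9% of all tested genes were called, 14.0% lower and 15.9% higher, and 2 of the 7 members were called, Rgn and Slc23a1, both lower. The median log2 fold change was -0.38 over the members and 0.03 over all tested genes. In whole tissue, fewer cells of a type and less RNA per cell cannot be told apart.

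**Figure D1:**
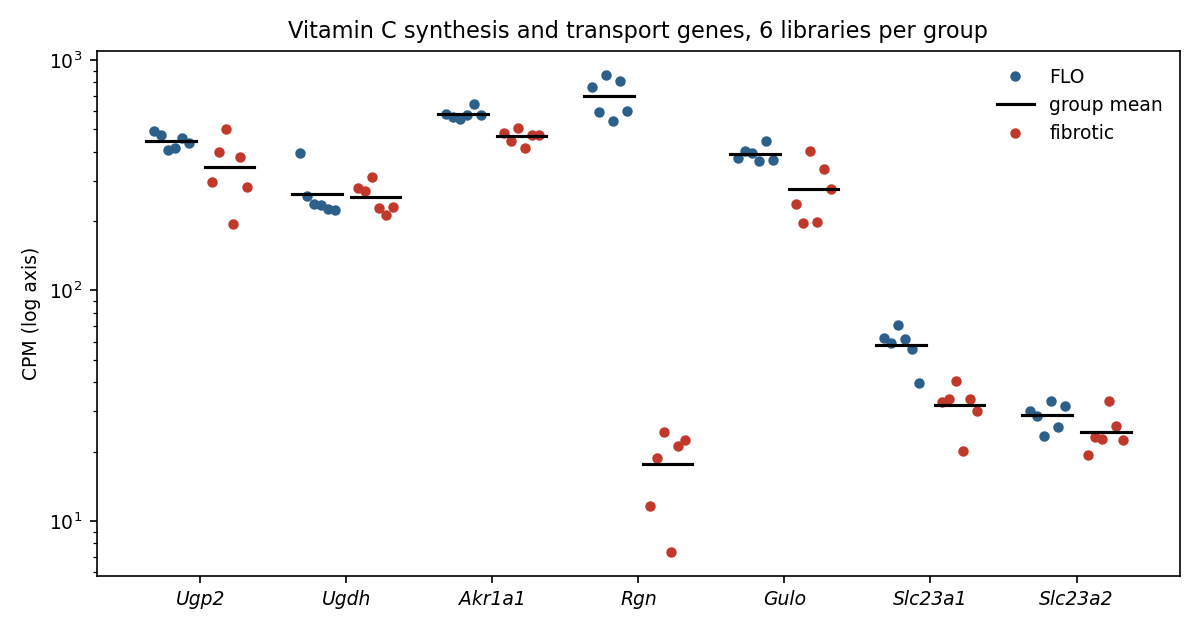
Level of each member in every library, in TMM-scaled CPM on a log axis, with 6 FLO libraries (blue) and 6 fibrotic libraries (red) per gene and a line at each group mean. The fibrotic values of Rgn, between 7.35 and 24.4 CPM, lie far below its FLO values of 544 to 864 CPM, while Ugdh and Slc23a2 overlap widely. Replicates 1 to 6 run from left to right within each group, and levels should be compared within a gene only.

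Ugp2 encodes UDP-glucose pyrophosphorylase, which makes the UDP-glucose that feeds both glycogen and UDP-glucuronate. Its level was 195 CPM in the lowest, 339 CPM in the median and 502 CPM in the highest fibrotic library, against 407, 447 and 494 CPM in FLO. Of the fibrotic libraries, 5 of 6 lay below every FLO library, and the remaining one, replicate 3, lay above all of them. The log2 fold change was -0.38 ± 0.17 (SE here and below), and Ugp2 was not called.

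Ugdh encodes UDP-glucose dehydrogenase, which oxidises UDP-glucose to UDP-glucuronate. Fibrotic libraries ran from 213 CPM through a median of 250 CPM to 312 CPM, and FLO libraries from 224 CPM through 237 CPM to 395 CPM. The ranges overlapped over most of their length, and the top FLO value came from replicate 1 alone, the next being 257 CPM. The log2 fold change of -0.04 ± 0.14 was smaller than its error and became 0.11 without FLO replicate 1 and 0.01 without fibrotic replicate 5, so no direction is given for Ugdh.

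Akr1a1 encodes the aldehyde reductase that reduces glucuronate to gulonate. It was the steadiest member, with fibrotic libraries at 417 CPM (lowest), 471 CPM (median) and 508 CPM (highest) and FLO libraries at 557, 578 and 641 CPM. The groups did not overlap, which held for 2 of the 7 members, Akr1a1 and Rgn, and for 30.4% of all tested genes (15.1% with fibrotic livers lower). Its log2 fold change was -0.33 ± 0.08, short of the fold that a call requires. Relative to summed hepatocyte markers the difference was -0.18 and the groups overlapped.

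Rgn (ENSMUSG00000023070) encodes regucalcin, also known as senescence marker protein and gluconolactonase, the enzyme that closes gulonate into its lactone. The gene lies on the X chromosome, at chrX:20549787-20562089 on the plus strand (mm10), with 7 annotated exons, and no other annotated gene shares its exon bases. The fibrotic libraries held 11.6, 18.8, 24.4, 7.35, 21.1 and 22.5 CPM in replicates 1 to 6, from 157 to 452 counts. The FLO libraries held 762, 593, 864, 544, 811 and 602 CPM, from 10320 to 20189 counts. The groups were far apart. The lowest FLO value was many times the highest fibrotic one, and the fibrotic mean was 2.53% of the FLO mean, or 39.5-fold lower.

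The log2 fold change of Rgn was -5.30 ± 0.29. Only 7 of the 13416 tested genes had a lower one. It was the lowest among the 1376 tested genes with a mean of at least 100 CPM, a cut that Rgn passed only through its FLO level of 696 CPM. Rgn was known beforehand to be among the most strongly lowered genes of this contrast, so both ranks restate that choice. FLO replicate 3, whose sex-linked counts go against its label, held the highest Rgn level, and without that library the log2 fold change was -5.23. Leaving out any single library gave -5.41 to -5.14. Without FLO replicate 3 and fibrotic replicate 4 together, a pair chosen after the data were seen, it was -5.07. Set against the summed hepatocyte markers, the log2 difference of Rgn was -5.25, and the groups again did not overlap.

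Gulo (ENSMUSG00000034450) encodes L-gulonolactone oxidase, which makes ascorbate from the lactone. It lies at chr14:65986786-66009207 on the minus strand (mm10), with 12 annotated exons. The fibrotic libraries held 238, 197, 404, 199, 338 and 275 CPM in replicates 1 to 6, and the FLO libraries 375, 401, 393, 365, 444 and 367 CPM. FLO libraries sat close together, whereas fibrotic libraries were spread out, 5 of 6 below every FLO library and replicate 3 within the FLO range. The means were 275 ± 82.2 and 391 ± 29.8 CPM, with a log2 fold change of -0.51 ± 0.16. Gulo was not called. It met the call rule without fibrotic replicate 3 (-0.64) and with upper quartile scaling (-0.53), DESeq2 (-0.52) or limma-voom (-0.55). The mRNA levels of the enzymes that make and use the lactone were 2.53% (Rgn) and 70.4% (Gulo) of their FLO means.

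Slc23a1 encodes SVCT1, the ascorbate carrier of epithelia and hepatocytes. Its fibrotic libraries held 32.7, 33.8, 40.5, 20.2, 33.8 and 30.0 CPM in replicates 1 to 6 and its FLO libraries 62.1, 59.1, 70.6, 61.3, 56.0 and 39.8 CPM. The groups met at a single point, since FLO replicate 6 lay just under fibrotic replicate 3. The means were 31.8 ± 6.67 and 58.1 ± 10.2 CPM and the log2 fold change was -0.87 ± 0.15, which met the call rule. Relative to the summed hepatocyte markers the difference was -0.73 and the groups did not overlap.

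Slc23a2 encodes SVCT2, the carrier found in most other cell types. Fibrotic libraries ran from 19.3 CPM through a median of 22.9 CPM to 33.2 CPM and FLO libraries from 23.4 CPM through 29.2 CPM to 33.1 CPM. The ranges were nearly the same at the top, where fibrotic replicate 4 held the highest value. Its log2 fold change was -0.23 ± 0.12 and it was not called.

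**Figure D2:**
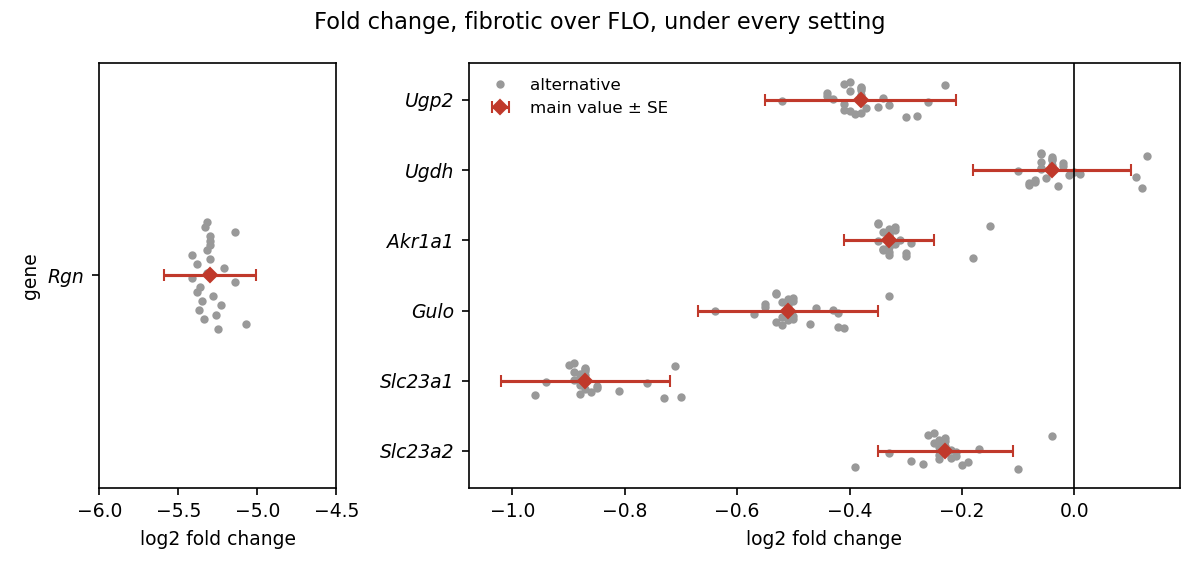
Log2 fold change of each member, fibrotic over FLO, with Rgn on an axis of its own. Red diamonds are the reported values with their SE and grey points are the values under each alternative scaling, filter, tool or left-out library. Rgn stayed between -5.41 and -5.07, and among the members only Ugdh had values on both sides of 0.

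Per kilobase of the longest annotated coding transcript, a scale for a rough comparison of different genes, the order of the members changed between the groups. Which transcript of each gene the livers made was not measured, and the order and ratios of different genes depend on that choice. In FLO livers Rgn was at 433 and Akr1a1 at 411 CPM per kilobase, and these 2 were not separated, since Rgn was the higher in 3 of 6 libraries. Gulo at 173 and Ugp2 at 167 CPM per kilobase followed, with Gulo the higher in 4 of 6 libraries. Ugdh at 103 CPM per kilobase was below Ugp2 in 6 of 6 libraries, although their ranges overlapped. Slc23a1 at 19.2 and Slc23a2 at 4.51 CPM per kilobase came last and were separated from their neighbours.

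In fibrotic livers Akr1a1 came first, at 328 CPM per kilobase, apart from all others. Ugp2 at 128, Gulo at 122 and Ugdh at 100 CPM per kilobase formed a middle group whose neighbours kept their order in 3 of 6 libraries each. Rgn followed at 11.0 CPM per kilobase, beside Slc23a1 at 10.5, and was the higher of the pair in 4 of 6 libraries. The level ratio of Rgn to Gulo per kilobase had a median of 2.44 (2.08 to 3.10) in FLO and 0.0865 (0.0519 to 0.134) in fibrotic libraries. For the carriers, the ratio of Slc23a1 to Slc23a2 had a median of 4.36 (2.65 to 6.34) in FLO and 2.94 (1.28 to 3.77) in fibrotic libraries, and these ranges overlapped.

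**Figure D3:**
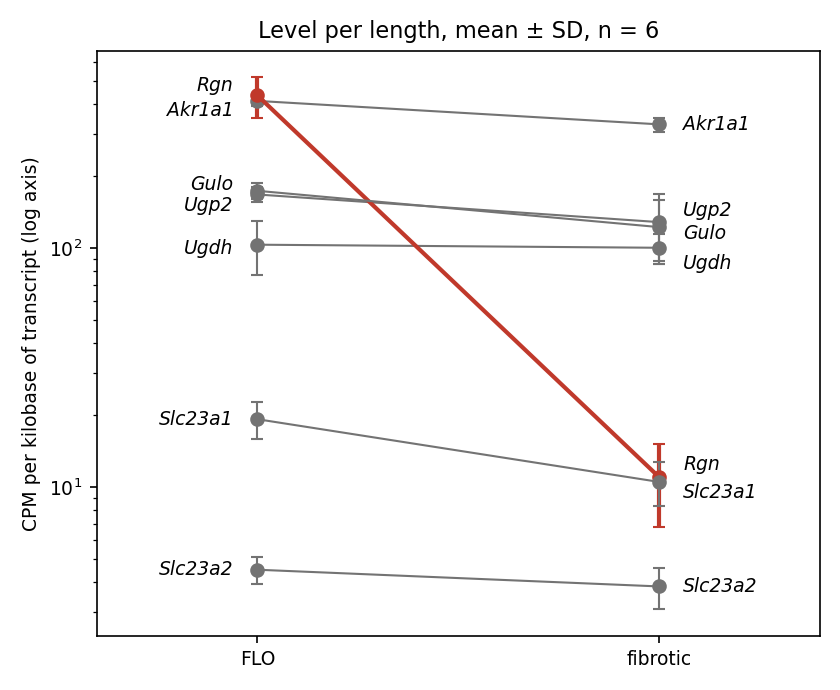
Mean level of each member per kilobase of transcript (log axis, bars are SD, n = 6) in FLO and fibrotic livers, with lines joining the means of one gene. Rgn moves from 433 CPM per kilobase, beside Akr1a1, to 11.0 CPM per kilobase, beside Slc23a1, and no other line falls as far.

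Fibrotic livers also differed more among themselves in some members. The coefficient of variation (CV, SD over mean) of Gulo was 29.9% in fibrotic and 7.62% in FLO libraries, and that of Ugp2 31.3% and 7.43%. Over the 7640 genes with a mean of 10 to 1000 CPM, the median CV was 12.8% in fibrotic and 10.9% in FLO libraries. Gulo varied more than 93.0% of those genes in fibrotic libraries and more than 24.6% of them in FLO libraries, and for Ugp2 these shares were 94.1% and 23.1%. Rgn varied widely in both groups, with CVs of 38.0% and 19.1%, above 97.1% of those genes in fibrotic and 87.4% in FLO libraries. The CVs of Slc23a1 were 21.0% and 17.6%, above 81.7% and 83.6% of those genes. For Slc23a2 the CVs were 19.6% and 12.8%, above 78.4% and 63.9% of those genes. Akr1a1 varied little, with CVs of 6.81% and 5.03%, and Ugdh varied more in FLO libraries, at 25.2% against 14.7%.

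The spread within the fibrotic group ran in the same direction for 6 of the 7 members. Fibrotic replicate 3 held the highest fibrotic level of every member except Slc23a2, and the median deviation of those 6 from the fibrotic mean was 0.48 on the log2 scale. Fibrotic replicate 4 held the lowest level of Rgn, Ugp2, Akr1a1 and Slc23a1 and the highest of Slc23a2, with a median deviation of -0.52 for the 6. In CPM scaled by library totals alone, replicate 3 was highest for 4 members and replicate 4 lowest for 3. Replicate 4 had the largest TMM factor, 1.2, and the highest summed level of 8 Kupffer cell and macrophage markers, 586 CPM in a fibrotic range of 288 to 586 CPM. It also held the highest fibrotic sums of the stellate cell markers (370 CPM) and of the endothelial markers (285 CPM). The part of any of these in these deviations was not tested.

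Pairwise correlations of log2 CPM restate this split, since they come from the same values of the same libraries. They are given as a description over libraries that share their scaling, and only with TMM. Within the 6 fibrotic libraries, all 15 pairs among the 6 members other than Slc23a2 had a positive Pearson r, from 0.21 to 0.95 with a median of 0.69. Ugp2 and Slc23a1 formed the closest pair, at 0.95. The 6 pairs with Slc23a2 were all negative, from -0.75 to -0.26. In the 6 FLO libraries 11 of the 15 pairs were positive, from -0.27 to 0.71, and 4 of the 6 pairs with Slc23a2 were negative.

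**Figure D4:**
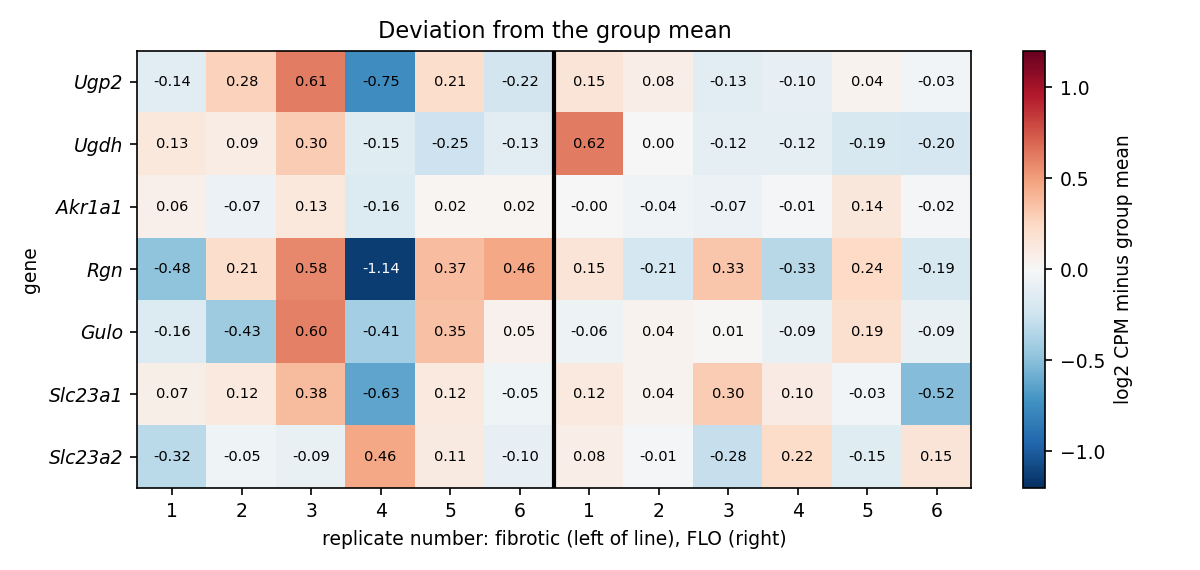
Deviation of each member from its group mean in log2 CPM, by library, with fibrotic replicates left of the black line and FLO replicates right of it (red above, blue below the mean). The columns of fibrotic replicates 3 and 4 are red and blue for 6 of the members and blue and red for Slc23a2, and the most separate FLO cell is Ugdh in replicate 1.

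Genes whose pattern over the 12 libraries was most like that of Rgn were found by Pearson r of log2 CPM, which the group difference dominates. They were Gltpd2 (0.995), Cyb5r3 (0.994), Asgr2 (0.994), Ropn1l (0.993) and Lcat (0.992), where Cyb5r3 encodes cytochrome b5 reductase, Asgr2 a subunit of the asialoglycoprotein receptor and Lcat lecithin-cholesterol acyltransferase. The log2 fold changes of these genes ran from -4.00 for Ropn1l to -1.03 for Cyb5r3. After each group mean was subtracted, the closest genes were Fdxr (0.954), Pon1 (0.950), Il1rap (0.929), Gstt1 (0.921) and Gcat (0.920). Between the groups, 3 of these 5 were lower in fibrotic livers, as Rgn was, with log2 fold changes of -1.96 for Pon1, which encodes a secreted lactonase, -2.07 for Il1rap and -1.19 for Gstt1. The log2 fold change was 0.68 for Fdxr, which encodes ferredoxin reductase, and 0.31 for Gcat.

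For Gulo the closest genes over the 12 libraries were Patz1 (0.936), Prickle1 (0.930), Dnajc27 (0.919), Tbc1d31 (0.915) and Cyp2e1 (0.915), the last encoding a cytochrome P450 of ethanol metabolism. With group means subtracted they were Glul (0.896), Snx1 (0.886), A4gnt (0.874), Prss8 (0.874) and Patz1 (0.869). Glul, which encodes glutamine synthetase, had a log2 fold change of 0.03, so its likeness to Gulo lay within the groups alone. No gene was among the closest to both Rgn and Gulo.

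The surroundings of the route were read from 5 lists with 81 genes, of which 80 were found in the table and 73 were tested. Of the tested genes, 10 rose and 23 fell, so that 45.2% were called against 29.9% of all tested genes. The lists were drawn up with earlier results of these data known, and near-identical gene copies weigh on the first of them.

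Supply and use of UDP-glucuronate had the most calls. Of 24 genes, all tested, 12 fell and 4 rose (66.7% called, against 29.9% of all tested genes, median log2 fold change -0.46). The 5 largest changes were all falls in UDP-glycosyltransferases, the family that attaches glucuronate and other sugars to bilirubin, steroids and drugs. Ugt2a3 fell from 186 ± 31.4 CPM in FLO to 26.1 ± 11.2 CPM in fibrotic livers (log2 fold change -2.83 ± 0.23, adjusted p = 4.01e-07). Ugt2b1 followed at -1.97 ± 0.19 (adjusted p = 8.74e-07), Ugt3a1 at -1.84 ± 0.18 (adjusted p = 9.87e-07), Ugt1a9 at -1.63 ± 0.26 (adjusted p = 0.00013) and Ugt3a2 at -1.61 ± 0.15 (adjusted p = 5.8e-07). The family did not move one way, since Ugt2b35 (1.15 ± 0.18), Ugt2b34 (1.08 ± 0.12) and Ugt1a1 (0.54 ± 0.11), the bilirubin-conjugating enzyme, rose, with adjusted p of 0.000105, 3.3e-06 and 0.000593. Without fibrotic replicate 1 Ugt1a1 was at 0.48 and no longer called. Ugt2b5 was not called, at 651 ± 93.2 CPM in fibrotic and 856 ± 134 CPM in FLO livers (-0.39 ± 0.12, adjusted p = 0.0135). Some Ugt2 genes are close copies and Ugt1a genes share exons, so the split of reads among such genes is uncertain and was not measured.

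Upstream of Ugp2, Pgm1, which encodes the phosphoglucomutase that supplies Ugp2 with its substrate, fell from 348 ± 24.1 to 190 ± 33.4 CPM (-0.87 ± 0.11, adjusted p = 1.2e-05). Gys2, encoding liver glycogen synthase, the competing user of UDP-glucose, fell from 204 ± 38.9 to 82.8 ± 20.6 CPM (-1.30 ± 0.17, adjusted p = 2.25e-05). Slc35d1, which encodes a carrier of UDP-glucuronate into the endoplasmic reticulum, was at 105 ± 6.30 CPM in fibrotic and 94.9 ± 12.4 CPM in FLO livers and was not called (adjusted p = 0.176). Pgm1, Gys2, Ugt2b35, Ugt2b34 and Ugt1a1 lie outside the naming rule and were picked after their values were seen.

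A further list was drawn around the branch that takes gulonate away from ascorbate, towards xylulose. It also holds aldo-keto reductases and an aldehyde dehydrogenase, so its counts are not those of the branch alone. Of its 9 tested genes, 3 fell and 1 rose (44.4% called, against 29.9% of all tested genes). Cryl1, encoding the dehydrogenase that oxidises gulonate, was at 34.1 ± 8.44 CPM against 50.3 ± 6.44 CPM (-0.56 ± 0.15, adjusted p = 0.00516). This call was lost when any of fibrotic replicates 1, 4 and 6 or of FLO replicates 1 to 4 was left out (-0.56 to -0.47). It was also lost with raw library totals (-0.40). Sord, encoding sorbitol dehydrogenase, fell from 1880 ± 94.3 to 832 ± 207 CPM (-1.18 ± 0.15, adjusted p = 1.5e-05), and Aldh2, encoding an aldehyde dehydrogenase, fell by 0.65 (adjusted p = 2.26e-05). With raw library totals Aldh2 was at -0.48 and not called. Akr1b3, encoding aldose reductase, rose from 6.87 ± 1.53 to 19.0 ± 2.67 CPM (1.47 ± 0.15, adjusted p = 1.33e-06). Akr7a5 and Xylb were not called, at -0.23 and -0.32. Dcxr, encoding the L-xylulose reductase of the branch and named after its values were seen, was not called either, at 0.12. Miox, whose enzyme cleaves inositol to glucuronate, did not pass the filter and held 1 to 51 counts in fibrotic and 0 to 3 counts in FLO libraries. DESeq2 and the fit with no low-count filter tested and called it, which brought the calls in this list to 5.

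Recycling of ascorbate and uptake of dehydroascorbate was mixed, with 3 of 14 tested genes higher, 4 lower and a median log2 fold change of -0.02. Slc2a2, encoding the hepatocyte glucose transporter GLUT2, fell from 460 ± 52.1 to 211 ± 69.7 CPM (-1.13 ± 0.19, adjusted p = 0.000155), whereas Slc2a1, encoding GLUT1, rose from 12.1 ± 1.45 to 19.6 ± 4.95 CPM (0.69 ± 0.15, adjusted p = 0.000998). Cyb5r3, also among the genes most like Rgn, fell from 534 ± 27.3 to 261 ± 29.6 CPM (-1.03 ± 0.09, adjusted p = 3.06e-07). Pdia3, encoding a protein disulfide isomerase, fell by 0.72 (adjusted p = 1.34e-05), and Cyb561, encoding a transmembrane reductase that uses ascorbate, rose by 0.80 (adjusted p = 0.000188). Cyb5b and Txn1 were not called, at -0.31 and 0.06. Gsto2, Cybrd1 and Slc2a10 held at most 6 counts in any library and were not tested.

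None of the 11 tested collagen hydroxylases and their partners was called by edgeR, nor by DESeq2 or limma-voom, while 5 had an unadjusted p under 0.05 in edgeR. By edgeR 29.9% of all tested genes were called. Of the 11 genes, 4 had an adjusted p of 0.01 or less with a change smaller than the fold threshold. P4hb, the beta subunit of prolyl 4-hydroxylase, was at 1570 ± 155 CPM in fibrotic and 2060 ± 138 CPM in FLO livers (-0.39 ± 0.10, adjusted p = 0.00299), and the lysyl hydroxylase gene Plod1 at 80.0 ± 2.85 and 98.7 ± 6.62 CPM (-0.30 ± 0.07, adjusted p = 0.00132). Plod3 was likewise lower (-0.33 ± 0.09, adjusted p = 0.00503), whereas the prolyl 3-hydroxylase gene P3h1 was higher, at 21.6 ± 1.79 against 16.3 ± 0.858 CPM (0.41 ± 0.08, adjusted p = 0.000443), and these last 2 were named after their values were seen. P4ha3 held at most 3 counts in any library.

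Among other oxygenases that use ascorbate, 4 of 15 tested genes fell and 2 rose, so that 40.0% were called. Of all tested genes 29.9% were called, 14.0% lower and 15.9% higher. Phyh, for phytanic acid breakdown, fell from 1130 ± 89.1 to 308 ± 86.5 CPM (-1.88 ± 0.17, adjusted p = 3.63e-07). Hpd, for tyrosine breakdown, fell from 1380 ± 227 to 605 ± 238 CPM (-1.19 ± 0.23, adjusted p = 0.000534), and Bbox1, for carnitine synthesis, fell by 0.76 (adjusted p = 3.99e-05). Pam, encoding the enzyme that amidates peptides, rose by 0.68 (adjusted p = 7.51e-05). Of the genes for HIF prolyl hydroxylases, which mark the hypoxia factor for destruction, Egln3 fell by 0.52 (adjusted p = 0.000538). The call of Egln3 was lost without fibrotic replicate 1, 4 or 6 or FLO replicate 1 or 2 (-0.50 to -0.46), and with raw library totals (-0.34). Egln2, named after its values were seen, rose by 0.51 (adjusted p = 0.000134), just past the fold threshold, and this call was lost with RLE or upper quartile scaling, with DESeq2 and when fibrotic replicate 1 or 6 or FLO replicate 2 was left out (0.46 to 0.50). Egln1, at 0.19, was not called. Kdm2a, a histone demethylase gene, was not called either, at 0.22. Dbh had 0 counts in every library, and Tet1 held at most 10.

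**Figure D5:**
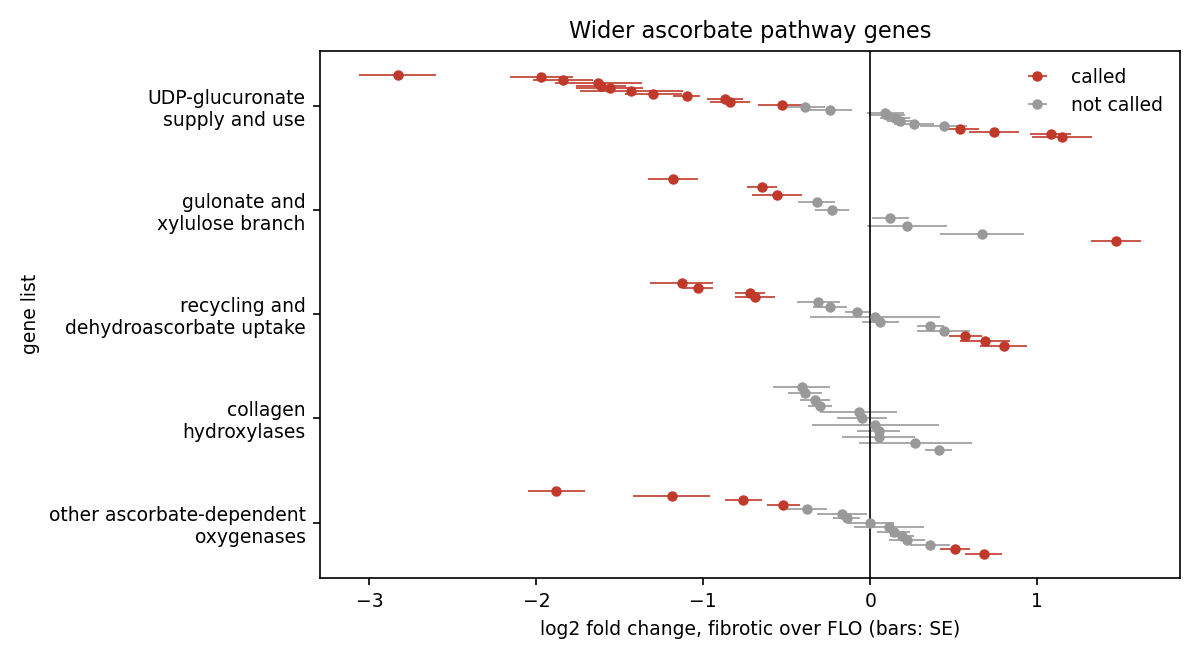
Log2 fold change, fibrotic over FLO, of the 73 tested genes in 5 lists around ascorbate, with SE bars, red where called and grey where not. Falls are most frequent among the genes of UDP-glucuronate supply and use, down to -2.83 for Ugt2a3, and none of the collagen hydroxylases is red.

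Among markers of other liver cells, most calls fell in the cholangiocyte and macrophage lists. Of all tested genes, 15.9% were called higher and 14.0% lower. Of 8 cholangiocyte markers, 5 rose, and their summed level was 100 to 307 CPM in fibrotic against 60.6 to 104 CPM in FLO livers. Of 8 Kupffer cell and macrophage markers, 6 rose, with sums of 288 to 586 against 240 to 269 CPM. One of 8 stellate cell markers rose (253 to 370 against 224 to 314 CPM), and 1 of 8 endothelial markers fell (233 to 285 against 302 to 343 CPM). Of 8 lymphocyte markers 2 were tested and 0 called by edgeR, with sums of 8.15 to 13.6 against 6.62 to 12.4 CPM, and no adipocyte marker of 6 passed the filter, with sums under 8 CPM. No marker was at 0 in all libraries. The summed hepatocyte markers differed by -0.14 on the log2 scale. Of those 10 markers 2 were called higher and 3 lower, so their sum is not a count of hepatocytes. The part of cell makeup in the members' differences was not tested.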

How the data were processed

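The authors deposited raw counts per Ensembl gene for 12 mouse liver libraries, not normalized. Their processing notes name bcl2fastq, STAR 2.7.3a and mm10; annotation and strand setting are not given in the sources used here. Symbols matched 51745 of 56205 identifiers (0.0587% of counts had none). Groups came from the sample titles. Counts were fitted in R 4.3.3 with edgeR 4.0.16 (robust quasi-likelihood, TMM, filterByExpr, Benjamini-Hochberg over 13416 genes). SE is the absolute log2 fold change over the square root of F. Replicates of a group all differed beyond sampling noise (chi-square per degree of freedom at least 11.1). Log2 CPM used a prior count of 2. Coordinates and transcript lengths came from GENCODE M21, and the RefSeq promoter table used here held no entry for Rgn, Gulo or Slc23a1, so no sequence is shown.

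Members and lists were chosen with earlier results of these data known. Named were all members, up to 5 called genes with the largest change and up to 2 uncalled genes with the highest level per list, and the 5 genes most like Rgn and Gulo. Alternatives were RLE, upper quartile, raw totals, TMM without the top 50 genes, other filters and thresholds, DESeq2 1.42.0, limma-voom 3.58.1, a non-robust fit, blocking by replicate number and leaving out each library.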

Additional observations from a re-analysis of the deposited data

Results flagged for a closer look

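In 72 sets of 6 libraries, 36 genes in each group, a library was marked when its gap to the nearest other library exceeded Dixon's critical share of the whole range of its group. Of the 72 sets, 3 passed, where chance gives about 3.6. Ugdh was highest in FLO replicate 1, at 395 CPM, with a gap of 0.757 of the range. Akr1a1 was highest in FLO replicate 5, at 641 CPM, with a gap of 0.693. Egln1 was lowest in FLO replicate 1, with a gap of 0.641.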

How the results depend on the processing

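Rgn and Slc23a1 kept their direction and their call under every alternative that gave a test, with leave-one-out ranges of -5.41 to -5.14 and -0.96 to -0.76. Gulo passed the call rule with upper quartile scaling (-0.53), DESeq2 (-0.52), limma-voom (-0.55) and a replicate block (-0.55), and ranged from -0.64 to -0.42 without single libraries. Ugdh turned positive with raw library totals (0.13) and relative to hepatocyte markers (0.12), an alternative added after the data were seen, and ranged from -0.10 to 0.11 without single libraries. The cause was not tested. Without a fold threshold, at an adjusted p of 0.05 or less, 6994 genes, 4 members and 4 collagen hydroxylases were called, against 4012, 2 and 0. Raw totals moved the median of all genes from 0.03 to 0.20 and the higher share of calls from 53.3% to 71.8%. They called 2 genes of the gulonate branch list and 1 collagen hydroxylase. Of the 29 list genes given by the naming rule, Aldh2, Cryl1 and Egln3 changed their call (16 of 667 values) and 0 changed direction. Among list genes named outside that rule, Egln2 and Ugt1a1 lost their call in some settings. P3h1 gained a call with raw library totals (0.59). Without single libraries, 3798 to 4093 genes, 2 to 3 members and 28 to 33 list genes were called. No pairing of the mice by replicate number was seen: same-numbered residuals correlated from -0.162 to 0.104, and 0 of 6 fibrotic libraries correlated best with their own number. Such correlations cannot exclude a pairing. With the number as a block, 3780 genes and 3 members were called. Each Rgn value rests on 157 or more counts.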
